A study of Mus musculus with 20 samples.

Results

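The enzymes described here are Glud1, Got1, Gad1, Psat1 and Phgdh, of which the first 4 act on glutamate and Phgdh starts the serine synthesis in which Psat1 takes part. They were chosen by gene symbol in the platform annotation, which listed 1 probe for each, so they are 5 of 15968 genes or unnamed probes on the array. The samples were Hepa1-6 cells, a mouse hepatoma line, grown to confluence in flasks with 25 mM glucose and a serum replacement, and followed for 96 h. Varied flasks got medium with 0 mM glutamine at the start and at 48 h and with 4 mM at 24 and 72 h, whereas control flasks got 4 mM at every exchange; penicillin and streptomycin were in the medium of both. Each of 20 two-colour arrays set RNA of varied flasks, labelled with Cy5, against RNA of control flasks, labelled with Cy3, at 1 of 11 numbered time points. Neither the hour of sampling nor the glutamine in the medium at that hour is given for a numbered time point, and the labels do not say whether the second array of a time point, titled with an r, was a repeat hybridisation or another flask. P-values of single time points and of differences among them may therefore measure technical spread only. Those of the mean over time points rest on the spread among time-point means, of which neighbouring ones may be alike. No time point is assigned to a state with or without glutamine.

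Values are log2 ratios, each array centred on the median of its spots, so that 0 is the median probe of the array. Base 2 is an assumption. A positive ratio likely means a higher level in varied than in control flasks, because the labels list the varied RNA first, but the direction is not stated in the sources used here. No array had its dyes swapped, so a bias of a probe for a dye and a lasting difference between flasks cannot be told apart. A ratio carries no level, and the number of arrays limits the precision.

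Glutamine enters cell metabolism mainly by losing its amide group to become glutamate. Glutamate dehydrogenase, encoded by Glud1, releases the remaining amino group as ammonia in mitochondria and yields 2-oxoglutarate for the tricarboxylic acid cycle. Aminotransferases such as Got1 and Psat1 instead pass the amino group on, to oxaloacetate and to phosphohydroxypyruvate, and Phgdh supplies the phosphohydroxypyruvate from the glycolytic intermediate 3-phosphoglycerate. Gad1 decarboxylates glutamate to the transmitter GABA and is best known from inhibitory neurons. Phgdh and Psat1 are known targets of ATF4, the transcription factor that cells induce when amino acids are short.

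The sites bound by ATF4 together with a C/EBP factor commonly read TGATGNAA, and many promoters also hold the CCAAT box. Both motifs were searched on both strands in the 250 bases before annotated starts of the members (RefSeq, GRCm38.p6), which gave 6 windows because Psat1 had 2 starts. The only Gad1 window (chr2:70561879-70562128) lies inside the annotated gene. That gene begins at base 70561303, and the bases before this were not searched. The windows of 3 members are shown, since Got1 was the enzyme with the only time-point value past the test on all arrays, and Psat1 and Phgdh are the textbook ATF4 targets of the set. Capitals mark the matches, read 5′ to 3′ in the direction of the gene.
Got1, chr19:43524606-43524855, minus strand: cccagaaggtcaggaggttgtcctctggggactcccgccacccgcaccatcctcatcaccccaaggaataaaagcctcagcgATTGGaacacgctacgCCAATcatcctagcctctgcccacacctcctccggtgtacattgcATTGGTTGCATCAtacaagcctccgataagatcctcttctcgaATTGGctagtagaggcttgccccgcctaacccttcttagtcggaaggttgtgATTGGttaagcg
Psat1, chr19:15925060-15925309, minus strand: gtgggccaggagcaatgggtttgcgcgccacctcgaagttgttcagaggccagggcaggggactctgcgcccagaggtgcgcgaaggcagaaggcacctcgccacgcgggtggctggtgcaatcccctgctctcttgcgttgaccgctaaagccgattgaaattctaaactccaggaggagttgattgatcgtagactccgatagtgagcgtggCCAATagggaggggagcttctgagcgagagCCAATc
Phgdh, chr3:98339970-98340219, minus strand: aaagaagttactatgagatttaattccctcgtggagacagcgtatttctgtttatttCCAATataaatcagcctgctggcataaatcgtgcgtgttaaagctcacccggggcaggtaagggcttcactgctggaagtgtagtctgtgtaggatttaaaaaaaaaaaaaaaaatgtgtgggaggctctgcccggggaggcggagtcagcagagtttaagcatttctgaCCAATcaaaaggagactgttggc
TGATGNAA had 1 match among the members, in Got1 on the reverse strand, where it reads TTGCATCA from base -102 to base -95 before the start. It directly follows a reversed CCAAT box (ATTGG, -107 to -103), without overlap. Of all 32851 windows of this length, 3.45% held TGATGNAA and 33.8% held CCAAT. The shorter motif occurred 5 times in Got1, 2 times in the Psat1 window shown and 2 times in Phgdh. The windows of Glud1 and Gad1 and the other window of Psat1 held neither motif. These are matches of letters, and binding was not measured.

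Of 17280 probes, an array gave a value for 4269 to 8269. The arrays of a time point correlated across probes with r between 0.518 and 0.691 at 7 time points. At time point 6 r was only 0.0539 and at time point 10 it was -0.0168. The second array of each of these stands apart from the rest. Its highest correlation with any other array was 0.397, the same value for both, so they are likely each other's closest match. On the second array of time point 10 the SD of all values was 2.53, against 0.261 to 0.954 on the other 19 arrays, and 331 spots shared 1 value, against at most 169 on the others. On the array of time point 5 and on the earlier-titled array of time point 6 the leading spot of every 20 was raised, and no member lies at such a position. At time point 5 the median of the spots at the members' own positions was between -0.13 and 0.14. Results are given for all 20 arrays and for a reduced set of 18 arrays, without the second arrays of time points 6 and 10 and without the raised spots. The members gave 82 of 100 possible values. Of 13 hepatocyte markers, 10 gave a value on some array and 6 were tested on the mean over time points. Albumin (Alb, -0.56) and keratin 8 (Krt8, -0.25) were past the test on the lower side (background 9.05% lower of 4752 genes). The other tested markers were not past it on all arrays: Fgb (-0.29, limma adjusted p 0.0525), Apoa2 (-0.08), Apoa1 (0.02) and Hnf4a (0.07). In the reduced set Fgb was past it as well (-0.27, limma adjusted p 0.0338), so 3 of 6 were lower there (background 12.2% lower of 4277 genes). Afp had a probe without any value. Ratios cannot show how strongly a marker was expressed.

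Gad1, the glutamate decarboxylase, lay above the median probe at 8 of 10 time points and was the 1 member past the test of the mean on all arrays. Its mean log2 ratio was 0.26 ± 0.20 (SD, n = 10 time points), a 1.19-fold higher ratio than the median probe, with a limma adjusted p of 0.0171 and a 95% interval of 0.11 to 0.40. The background of this test is high: 22.6% of 4752 genes were past it, 13.6% on the higher side, 9.05% on the lower, so 1 of 5 members is close to the share among all genes and is no result about the set. Its lowest pair of agreeing arrays was that of time point 1, at -0.08 and -0.07, followed by 0.09 and 0.13 at time point 2. Time point 3 had 0.26 and 0.70, time point 4 had 0.32 and 0.11, time point 7 had 0.65 and 0.37, time point 8 had 0.38 and 0.10, and time point 9 had 0.22 and 0.33. The single arrays of time points 5 and 11 gave 0.39 and 0.44, and time point 6 gave no value. All 13 values from time point 2 to time point 9 were thus above 0, as were those of time point 11 and of the first array of time point 10. At time point 10 the arrays disagreed, with 0.39 on the first and -0.42 on the second, the array that stands apart.

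Without that second array and the raised spots the mean of Gad1 was 0.30 ± 0.19 (SD, n = 10), with a limma adjusted p of 0.00274 (background 20.6% higher of 4277 genes), and 9 of 10 time points were above 0. With the first array of time point 10 left out instead, so that the deviating array alone stood for that time point, the mean was 0.22 and the limma adjusted p 0.123. Gad1 was not past the test for a difference among time points on all arrays (moderated F-test of limma, adjusted p 0.600, range of time-point means 0.59). In the reduced set, also with values on 16 or more arrays required, the values of 0.48 at time point 3 (limma adjusted p 0.0113) and 0.51 at time point 7 (limma adjusted p 0.00233) were past the test of a single time point. The backgrounds there were 8.5% and 17.3% of genes on the higher side. Neither was past it on all arrays, where the limma adjusted p were 0.237 and 0.10.

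**Figure D1:**
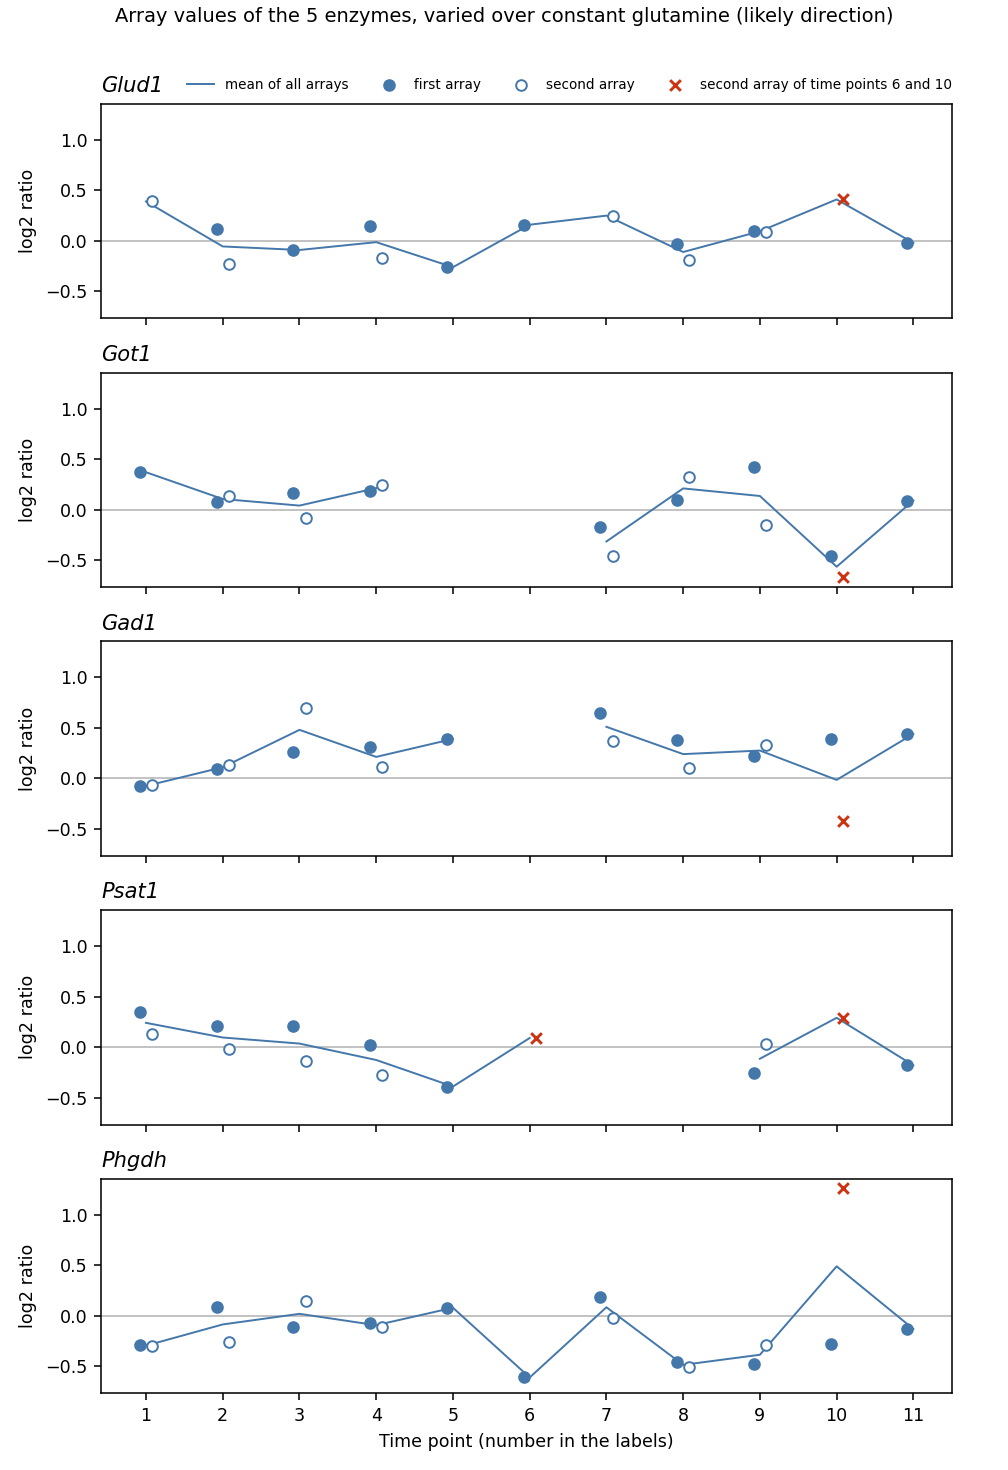
Centred log2 ratio of each enzyme on every array (points) and the mean of all arrays of a time point (line), against the time point number. Filled points are first arrays, open points second arrays and red crosses the second arrays of time points 6 and 10. Gad1 lies above 0 on 15 of 18 arrays, and the value of 1.26 for Phgdh is a red cross.

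Gad1 and its relatives of the GABA shunt did not move one way. Gad2, the other glutamate decarboxylase, lay at 0.10 ± 0.12 (SD, n = 11), above 0 at 9 of 11 time points (limma adjusted p 0.130). Aldh5a1, the succinate semialdehyde dehydrogenase at the end of the shunt, was lower at -0.32 ± 0.25 (SD, n = 11), below 0 at 10 of 11 time points (limma adjusted p 0.00939). In the reduced set Aldh5a1 stood at -0.39 ± 0.23 (n = 11, limma adjusted p 0.000749, background 12.2% lower of 4277 genes). Aldh9a1, which oxidises aminobutyraldehyde, lay at -0.02 ± 0.22 (n = 11, limma adjusted p 0.840), and Abat, the GABA aminotransferase, gave values on 3 arrays and was not tested. Of the 4 tested genes 1, Gad1 itself, was higher and 1 lower, where 13.6% and 9.05% of all 4752 genes were. Their median was 0.04, against a median of 0.02 over all genes. Because Gad1 is a neuronal enzyme, 5 neuronal markers were listed: Tubb3 was higher at 0.28 ± 0.14 (SD, n = 11, limma adjusted p 0.00277), Gad2 is given above, and Slc32a1, Snap25 and Syp gave values on 2 or 3 arrays. Of the other marker lists, 1 of 3 tested fibroblast or stellate markers was higher, Col1a2 (0.19, limma adjusted p 0.00736). Dcn (0.02) and Pdgfrb (-0.43) were not past the test. The 1 tested macrophage marker, Aif1, was higher (0.69, limma adjusted p 0.000759). The 1 tested endothelial marker, Kdr, was not past the test (0.35, limma adjusted p 0.0959). A higher marker was thus not particular to the neuronal list (background 13.6% higher of 4752 genes). The part of any marker in the Gad1 ratio was not tested.

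Got1, the cytosolic aspartate aminotransferase and 1 arm of the malate-aspartate shuttle, had the 1 time-point value past the test on all arrays. At time point 10 it gave -0.46 on the first array and -0.67 on the second, the array that stands apart (SD of all its values 2.53). The mean of both was -0.56 (limma adjusted p 0.0370 over the 3713 genes of that time point). There 6.14% of genes were past the test on the lower side. It was 1 of 30 member values tested at single time points, where 0% to 12.3% of all genes were past the test in either direction. Time point 7 was the other low one, at -0.17 and -0.46. The remaining time points lay higher. Time point 1 had 0.37 on 1 array, time point 2 had 0.08 and 0.13, time point 3 had 0.16 and -0.08, and time point 4 had 0.19 and 0.24. Time point 8 had 0.10 and 0.32, time point 9 had 0.42 and -0.15, and time point 11 had 0.09, while time points 5 and 6 gave no value. Both arrays of time points 7 and 10 therefore lay below every value of the other time points, though the second array of time point 10 stands apart.

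The call of Got1 at time point 10 was lost without the second array of that time point, when its value was -0.46 (limma adjusted p 0.123). It was also lost without either array of time points 2, 3, 4 or 8, when the value stayed at -0.56 and the limma adjusted p was 0.0512 to 0.0584. The F-test among time points left Got1 at a limma adjusted p of 0.192, with a range of 0.94 between time-point means and a residual SD of 0.21 between arrays. On all arrays 7% of 3744 genes were past the F-test, and of the 3 members with enough arrays none was. Its mean over time points was 0.03 ± 0.29 (SD, n = 9), with a 95% interval of -0.17 to 0.23 and a limma adjusted p of 0.824. A mean near 0 thus stood for positive and negative time points, 7 above 0 and 2 below.

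Of the other shuttle genes, 3 had values at all 11 time points. The mitochondrial malate dehydrogenase Mdh2 was higher at 0.29 ± 0.13 (SD, n = 11; limma adjusted p 0.00149), above 0 at all 11 time points, while the cytosolic Mdh1 lay at 0.04 ± 0.18 (n = 11, adjusted p 0.606) and the aspartate-glutamate carrier Slc25a12 at 0.03 ± 0.31 (n = 11, adjusted p 0.824). Of 7 listed shuttle genes 4 were tested, Got1 among them, and 1 was higher (background 13.6% higher of 4752 genes). Got2, the mitochondrial partner of Got1, gave values at 8 time points and was not tested, and Slc25a13 had a probe without any value.

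Glud1, the mitochondrial glutamate dehydrogenase, had a mean close to the median probe. Over its 15 arrays the ratio ran from -0.26 through a median of 0.09 to 0.41, with 8 values above 0 and 7 below. Its mean was 0.07 ± 0.21 (SD, n = 11 time points), with a limma adjusted p of 0.469 and a 95% interval of -0.07 to 0.21. The high end came from single arrays, with 0.39 for time point 1, 0.25 for time point 7 and 0.41 from the second array of time point 10, and the low end was the -0.26 of time point 5. Where both arrays gave a value, they agreed at time point 9 (0.10 and 0.09) and had opposite signs at time points 2 (0.12 and -0.23) and 4 (0.15 and -0.17). At time point 8 they gave -0.03 and -0.19. With 11 or more arrays required, a lower limit that admits Glud1, the F-test gave an adjusted p of 0.614 (limma, background 6.71% of 5188 genes).

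**Figure D2:**
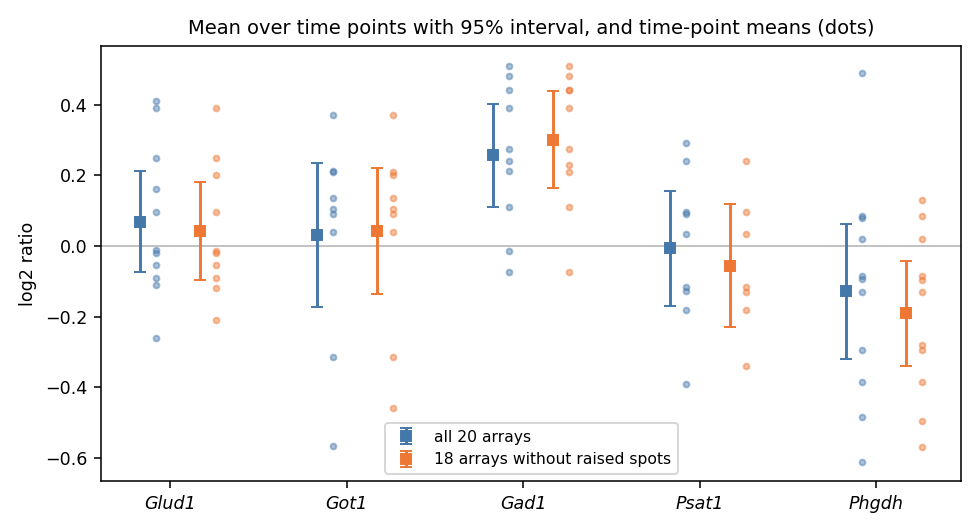
Mean log2 ratio over time points of each enzyme (squares) with its 95% interval from limma, unadjusted for the number of genes, beside its time-point means (dots), for all 20 arrays with 9 or more time points required (blue) and for the reduced set of 18 arrays with 6 or more (orange). The interval of Gad1 lies above 0 in both, from 0.11 to 0.40 on all arrays, and that of Phgdh spans 0 only on all arrays.

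Phgdh, which commits 3-phosphoglycerate to serine synthesis, had ratios below the median probe on 14 of 19 arrays. Its mean was -0.13 ± 0.31 (SD, n = 11 time points; limma adjusted p 0.312) on all arrays. Its lowest value was -0.61, on the first array of time point 6, followed by time point 8 with -0.46 and -0.51 and time point 9 with -0.48 and -0.29. Time point 1 had -0.29 and -0.30, and time point 4 had -0.075 and -0.11. Near 0 or on both sides of it were time points 2 (0.09 and -0.26), 3 (-0.11 and 0.15) and 7 (0.19 and -0.02), with 0.08 at time point 5 and -0.13 at time point 11. Time points 1, 6, 8 and 9 were thus the low ones, and each value there lay below every value of the other time points.

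The call on the mean of Phgdh turned on time point 10. Its arrays gave -0.28 on the first and 1.26 on the second, a gap of 1.54, where the other 7 pairs differed by 0.35 or less. The deposited value behind 1.26 was 1.31, which 96 spots of that array share. The values of the other members on that array were shared by 11 (Got1) to 44 (Gad1) spots. On the other arrays the most repeated value was held by 63 to 169 spots. In the reduced set the mean of Phgdh was -0.19 ± 0.23 (SD, n = 11), below 0 at 8 of 11 time points. Its limma adjusted p was 0.0436 with values at 9 or more time points required (background 12.2% lower of 4277 genes) and 0.0510 with 6 or more (background 14.1% lower of 5957 genes), so the call depends on which genes enter the adjustment. At single time points of the reduced set, with 16 or more arrays required, -0.57 at time point 6 (1 array, limma adjusted p 0.0273), -0.50 at time point 8 (limma adjusted p 0.0118) and -0.39 at time point 9 (limma adjusted p 0.0467) were past the test. The backgrounds there were 8.66%, 3.33% and 4.75% of genes on the lower side. With 11 or more arrays required, the limma adjusted p of time point 9 was 0.0674. On all arrays the limma adjusted p for the same 3 time points were 0.444, 0.501 and 0.535. Among time points, the limma F-test of Phgdh had an adjusted p of 0.613 on all arrays. It was 0.0544 in the reduced set with 16 or more arrays (background 33.3% of 3180 genes) and 0.0947 with 11 or more (background 26.7% of 4749 genes).

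Psat1, the phosphoserine aminotransferase that follows Phgdh and uses glutamate as its amino donor, had a mean of -0.01 ± 0.22 (SD, n = 9 time points; limma adjusted p 0.955; 95% interval -0.17 to 0.15). Time points 1 to 4 gave 0.35 and 0.13, 0.21 and -0.02, 0.21 and -0.14, and 0.03 and -0.28. In each of these pairs the array titled with an r was the lower one, and of 5 pairs only that of time point 1 had 1 sign. The single array of time point 5 gave the lowest value, -0.39, time point 9 gave -0.26 and 0.03, and time point 11 gave -0.18. Time points 7 and 8 gave no value, and those of time points 6 (0.09) and 10 (0.29) came only from the second arrays that stand apart. The F-test gave an adjusted p of 0.585 (limma, 11 or more arrays). In the reduced set 7 time points remained, with a mean of -0.06 ± 0.19 (SD, n = 7; limma adjusted p 0.624).

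The neighbouring enzymes of serine and one-carbon metabolism were thinly measured. Of 24 listed genes 17 had a probe, 14 gave any value and 4 were tested. These 4 were Phgdh and Psat1 themselves, Shmt1 and Mat2b. None was past the test on all arrays, against 22.6% of all genes. Shmt1, which moves a one-carbon unit from serine to folate in the cytosol, lay at 0.28 ± 0.49 (SD, n = 11), above 0 at 9 of 11 time points (limma adjusted p 0.147), and Mat2b, a regulatory subunit of methionine adenosyltransferase, at -0.00 ± 0.21 (n = 11, adjusted p 0.983). Psph, which completes serine synthesis, gave a value on 1 array, and Shmt2 and Mthfd2 gave values at 8 time points each.

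Over the glutamine and glutamate list, 5 of 27 genes were tested, which were Glud1, Got1, Gad1 and Psat1 of the set and, besides them, only Gad2. Gad1 was the 1 called (background 22.6% of 4752 genes in either direction). Of the other genes on the list, glutamine synthetase Glul, asparagine synthetase Asns and the alanine aminotransferase Gpt had probes without any value. Among other aminotransferases 1 of 4 tested was lower (background 9.05% lower of 4752 genes). This was Agxt, the alanine-glyoxylate aminotransferase of liver, at -0.34 ± 0.24 (SD, n = 11; limma adjusted p 0.00563), below 0 at all 11 time points. The branched-chain aminotransferases Bcat1 and Bcat2 lay at 0.14 ± 0.29 (n = 11, adjusted p 0.249) and 0.09 ± 0.28 (n = 11, adjusted p 0.459). In the reduced set Bcat1 was higher, at 0.22 ± 0.15 (n = 11, limma adjusted p 0.00660, background 20.6% higher of 4277 genes). Of the proline, ornithine and aspartate routes 2 of 16 genes were tested and none was called on all arrays, the urea cycle lyase Asl at -0.17 ± 0.32 (n = 11, adjusted p 0.197) and the ornithine decarboxylase Odc1 at 0.10 ± 0.32 (n = 11, adjusted p 0.440). In the reduced set Asl was lower, at -0.22 ± 0.20 (n = 11, limma adjusted p 0.0132, background 12.2% lower of 4277 genes). Over all lists together, the 5 enzymes included, 19 of 78 genes were tested, and 2 were higher and 2 lower. That is 21.1% against the background of 22.6%, and 0 of 15 were past the F-test.

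**Figure D3:**
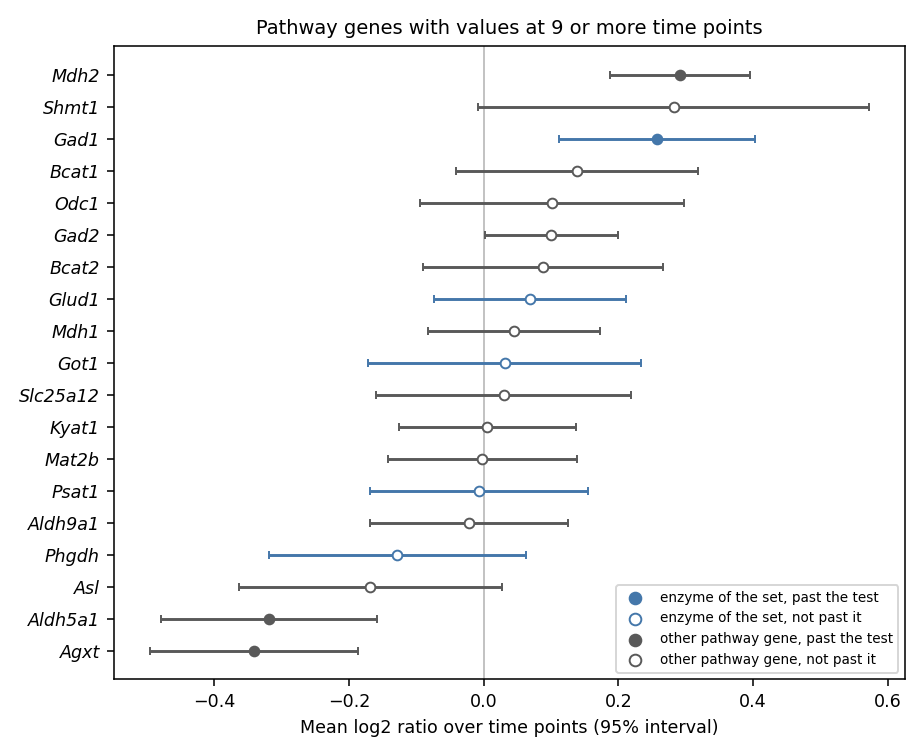
Mean log2 ratio over time points (x axis) with its 95% interval, on all 20 arrays, for the 19 genes of the lists that gave values at 9 or more time points, ordered by mean. Filled points passed the limma test at an adjusted p under 0.05, and these were Mdh2 and Gad1 above 0 and Aldh5a1 and Agxt below it.

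In the order of their means, Gad1 (0.26) stood first, followed by Glud1 (0.07), Got1 (0.03), Psat1 (-0.01) and Phgdh (-0.13). The 95% intervals of neighbours in this order overlapped, whereas that of Gad1 (0.11 to 0.40) did not overlap that of Phgdh (-0.32 to 0.06). Differences between members were not tested, and each could include a dye bias of its own probe. The median gap between both arrays of a time point was 0.24 for Glud1, 0.22 for Got1, 0.24 for Gad1, 0.29 for Psat1 and 0.20 for Phgdh. The SDs over time points ran from 0.20 to 0.31. They are taken over time-point means, many of them averages of 2 arrays, and so are not the same measure as a gap between single arrays. Arrays of a time point had 1 sign in 7 of 8 pairs for Gad1, in 5 of 7 for Got1, in 4 of 8 for Phgdh, in 2 of 4 for Glud1 and in 1 of 5 for Psat1.

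The profiles of the members over time points were compared as a description, since all points share arrays and their centring. Glud1 and Psat1 had a Pearson r of 0.83 and a Spearman rho of 0.68 (n = 9 time points), and 0.71 and 0.46 (n = 7) in the reduced set. Gad1 and Psat1 ran opposite, with r = -0.76 and rho = -0.69 (n = 8), and -0.73 and -0.59 (n = 7) in the reduced set. Got1 and Phgdh had r = -0.86 and rho = -0.78 (n = 9) on all arrays, but -0.32 and -0.50 (n = 9) in the reduced set, in which the second array of time point 10 is left out. Gad1 and Got1 had r = -0.09 and rho = -0.43 (n = 9) on all arrays, and -0.69 and -0.80 (n = 9) in the reduced set. Both enzymes of serine synthesis, Psat1 and Phgdh, had r = 0.09 and rho = 0.03 (n = 9), and -0.44 and -0.32 (n = 7) in the reduced set.

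**Figure D4:**
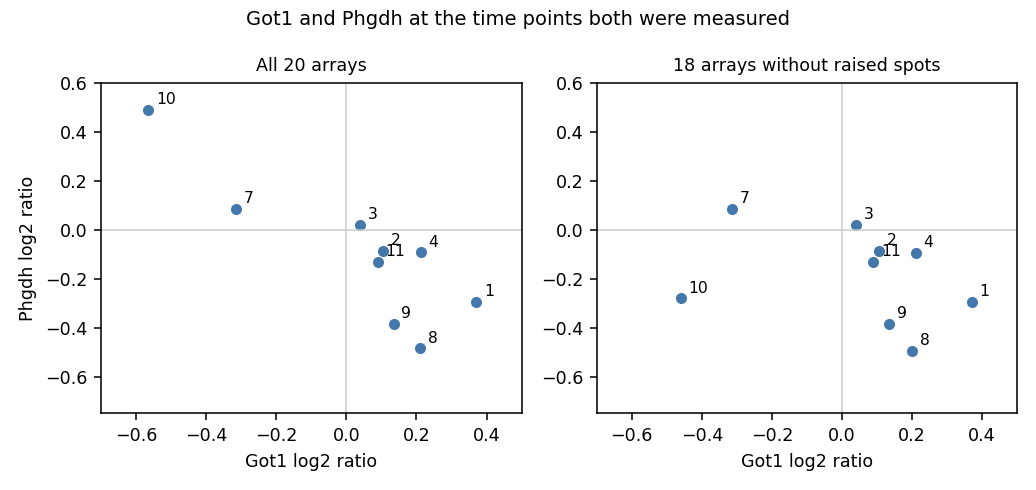
Time-point means of Phgdh (y axis, log2 ratio) against Got1 (x axis, log2 ratio) with the time point number beside each point, for all 20 arrays (left) and the reduced set (right). Time point 10 moves to -0.28 for Phgdh in the reduced set, against 0.49 on all arrays.

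Of genes with a symbol and at least 9 shared time points, those most like a member were found by Pearson correlation of time-point means. For Gad1 these were the serotonin receptor Htr7 (r = 0.94, n = 10), Itln1 (0.87, n = 9) and the kinase Mast2 (0.87, n = 10), and all 3 kept r of 0.77 or more in the reduced set. For Got1 they were the Integrator subunit Ints12 (0.97), Kndc1 (0.96) and Dact1 (0.96), each with n = 9, of which Dact1 had r = 0.32 in the reduced set. Glud1 was followed by Wdr83os (0.92, n = 11), Casp14 (0.91, n = 9) and Lactb2 (0.90, n = 11). Psat1 was followed by Pxk (0.98), Emp3 (0.97) and 1700063H04Rik (0.96), each with n = 9. Phgdh was followed by Nrip2 (0.95), Sypl2 (0.92) and the prostaglandin receptor Ptgfr (0.92), each with n = 11. These were picked as the highest of 2931 to 4221 candidates a member, and no test applies to them.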

How the data were processed

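The arrays, with 2 colours, were deposited as 1 column of values per array. Per the labels, control RNA carried Cy3 and varied-glutamine RNA Cy5. The values deposited are treated here as log2 ratios of varied over control. Scanner, background correction, normalization, the rule for blank spots, log base and direction are not given in the sources used here. At time point 4 the channel 2 label of 1 array names cells without glutamine, which was taken as a slip and met by an alternative without that time point. Array medians of 0.05 to 0.435 were subtracted. Of 17280 probes, 14718 had 1 symbol and 2562 had none that could be used, 1 of them because several were listed; probes of 1 symbol were averaged.

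Tests used R 4.3.3 and limma 3.58.1 and were tested on simulated data. The mean of time-point means was tested against 0 in genes with values at 9 or more time points. A mean per time point was fitted in genes with values on 16 or more arrays, with a moderated F-test among time points and a test of each. Time points count as independent units, though neighbouring ones may be alike. Adjusted p under 0.05 (Benjamini-Hochberg, all genes tested) counted as past the test.

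Members, lists, motifs and tests were chosen with earlier results of these data known. Named were all 5 members, called genes of each list (up to 4, otherwise the 2 largest means) and the 3 genes most like each member; genes with few values were named for their coverage. The limits of 6 time points or 11 arrays in the reduced set were chosen after seeing the data.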

Additional observations from a re-analysis of the deposited data

How the results depend on the processing

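Gad1, which has 10 time points and was not tested where all 11 were required, kept its direction under the other alternatives run and its call under all of these but the loss of the first array of time point 10 (0.22, limma adjusted p 0.123), with a mean of 0.22 to 0.30 when single arrays and 0.23 to 0.29 when single time points were left out. Without centring, the median of all genes was 0.28, a shift of 0.26, 2849 genes were higher and 46 lower, and the means became 0.52 for Gad1, 0.32 for Glud1 and 0.30 for Got1 (all past the test), 0.24 for Psat1 (reversed and past it) and 0.12 for Phgdh (reversed, limma adjusted p 0.241), with 6 member values at single time points called instead of 1. Means near 0 had no stable sign: Got1 became -0.0094 with blocks of 540 probe numbers centred and spanned -0.011 to 0.11 without single time points and -0.011 to 0.06 without single arrays (negative without time point 1 or the first array of time point 9, at -0.00), and Psat1 became 0.0081 without time point 4 and spanned -0.044 to 0.041 in both. Leaving out single time points or arrays, Glud1 spanned 0.03 to 0.10, and Phgdh -0.19 to -0.08 and -0.20 to -0.058, called without the second array of time point 10 (-0.20, limma adjusted p 0.0441). With time point 10 left out entirely, Phgdh was not called (-0.19, limma adjusted p 0.0740). Phgdh was also called in the reduced set (-0.19), where the F-test called 1059 genes of 3180 against 262 of 3744 on all arrays, and 5 member values at single time points were called. With 6 or more time points or 11 or more arrays in that set, 840 genes were lower against 430, the F-test called 1267, and 4 member values were called; the cause was not tested. With all 11 time points required, 209 genes were lower of 3031, where fewer genes were tested. Member values called were 2 with centred blocks and 0 without time point 4. Outside all 20 arrays and the reduced set, the share of all genes past the tests of single time points was not computed. Without single arrays the F-test called 95 genes (without time point 5) to 1920 (without the first array of time point 10). It called 1033 without the second. Counts were 172 or 174, 174 and 172 or 168 without an array of time points 2, 4 (the second) and 7. Member values called were 0 without either array of time points 2, 3, 4 or 8. They were 6 without the first array of time point 10 and 4 without the second. In these settings the range of time-point means was 0.78 to 1.04 for Got1, 0.56 to 0.93 for Gad1 and 0.70 to 1.87 for Phgdh. All 3 passed the F-test only without that first array, as did 1920 of 3744 genes. Counts of genes spanned 425 to 840 higher and 288 to 566 lower without single arrays, and 478 to 785 and 314 to 504 without single time points; the 425 came without the first array of time point 10. Of the 15 most alike genes, 5 were shared with a Spearman choice, and 3 with the reduced set, where Psat1 has too few time points to enter.

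Arrays titled with an r did not all deviate together: the correlation of their deviations was -0.432 to 0.332 over 36 pairs of time points, with a median of 0.0042 and 9 over 0.1, so the r was not used as a pairing. With a replicate block the F-test called 188 genes against 262 and gave adjusted p of 0.222 for Got1, 0.634 for Gad1 and 0.635 for Phgdh, still not past it. Signal over background was not analysed here.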
